A study of Homo sapiens with 8 samples.

Results

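Of the 22 tRNA genes of human mitochondrial DNA (mtDNA), 14 lie on the plus strand of the reference, and 9 of these are described here: MT-TF, MT-TV, MT-TI, MT-TW, MT-TD, MT-TK, MT-TG, MT-TR and MT-TT. They were chosen by name and strand and leave out MT-TL1, MT-TL2, MT-TM, MT-TS2 and MT-TH. The measurements came from HEK293 cells, a human line of embryonic kidney origin in long use. In 6 samples, cells were transfected with myc-tagged NSun3 (3 replicates) or NSun6 (3 replicates), both RNA cytosine-5 methyltransferases, and lysed 24 hours later. The RNA held by the enzyme was recovered with an antibody against the tag and sequenced by miCLIP. In this assay a mutation in the active site keeps the enzyme on its target cytosine, the reverse transcriptase halts beside the adduct, and reads are meant to mark such truncation positions. Whether the positions in the files are the truncated base itself or the first base of the read next to it is not given in the sources used here, so bases are named as listed and may lie 1 nt from the adduct. No library without an enzyme was analysed here, so no background of the assay was subtracted and each enzyme was read against the other. The other 2 samples were bisulfite-treated poly(A) RNA of HEK293, in which methylated cytosines stay unconverted.

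Mitochondrial tRNAs are excised from long transcripts in which they separate the coding sequences and the rRNAs, and they bring amino acids to the mitochondrial ribosome. Each has an acceptor stem that carries the amino acid, a D arm, an anticodon arm and a T arm. MT-TF (phenylalanine) and MT-TV (valine) flank the small rRNA gene. The others decode isoleucine (MT-TI), tryptophan (MT-TW), aspartate (MT-TD), lysine (MT-TK), glycine (MT-TG), arginine (MT-TR) and threonine (MT-TT). MT-TG lies between the genes for cytochrome oxidase subunit 3 and ND3, MT-TR between ND3 and ND4L, and MT-TT after cytochrome b.

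The 9 sequences are shown because the truncations are placed on them by base. They are the reference mtDNA of the GRCh37 assembly, 5′ to 3′ on the plus strand, with the anticodon in capitals. Bases are counted from 1 at the 5′ end of the gene.
MT-TF: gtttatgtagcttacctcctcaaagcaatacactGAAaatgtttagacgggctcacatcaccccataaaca
MT-TV: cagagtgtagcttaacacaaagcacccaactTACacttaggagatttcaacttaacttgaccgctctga
MT-TI: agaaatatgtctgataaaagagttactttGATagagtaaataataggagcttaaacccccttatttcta
MT-TW: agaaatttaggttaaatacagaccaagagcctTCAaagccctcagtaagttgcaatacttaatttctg
MT-TD: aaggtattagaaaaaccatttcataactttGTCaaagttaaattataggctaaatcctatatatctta
MT-TK: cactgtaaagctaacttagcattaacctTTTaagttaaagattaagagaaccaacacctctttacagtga
MT-TG: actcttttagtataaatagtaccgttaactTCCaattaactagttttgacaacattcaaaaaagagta
MT-TR: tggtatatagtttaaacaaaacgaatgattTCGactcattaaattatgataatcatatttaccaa
MT-TT: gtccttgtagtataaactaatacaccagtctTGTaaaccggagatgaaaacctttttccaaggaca

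The genes were 65 to 71 nt long and held 8 (MT-TR) to 19 (MT-TF) cytosines, 115 in all. In the numbering of the deposited files, MT-TF spans chrM:579-649, MT-TG chrM:9992-10059, MT-TR chrM:10406-10470, MT-TT chrM:15889-15954 and MT-TI chrM:4264-4332. The anticodon begins at base 35 in MT-TF, 31 in MT-TG, 32 in MT-TT, 31 in MT-TR and 30 in MT-TI. In the anticodon itself, only MT-TW, MT-TD, MT-TV, MT-TG and MT-TR have a cytosine.

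The NSun3 libraries held 47352 to 138921 reads and the NSun6 libraries 305392 to 467586, so the precision was lower for NSun3. The NSun3 replicates also differed more from each other. Chi-square per degree of freedom over genes was 24.2 to 35.0 between pairs of NSun3 libraries. Between pairs of NSun6 libraries it was 4.41 to 7.04. The gene test below fits the same spread per gene for both enzymes. A gene without a read may hold up to 3 reads. In RPM, a read count divided by the total of its library and set to a common library size, this is 21.6 to 63.4 in an NSun3 library and 6.42 to 9.82 in an NSun6 library (counting error only). Exon reads of NSUN3 were 32, 19 and 0 in NSun3 replicates 1 to 3 and 0, 0 and 8 in NSun6 replicates 1 to 3, so the transfected gene was not seen in the library labelled NSun3 replicate 3. MT-TM, a tRNA gene outside the 9, had 71998, 89016 and 44116 RPM in NSun3 replicates 1 to 3 and 148, 109 and 118 RPM in NSun6, so there this library was the lowest of NSun3 and above every NSun6 library. Exon reads of NSUN6 were 0 in every NSun3 library and 323, 428 and 323 in the NSun6 libraries. Positions in exons annotated on a single strand lay on that strand in 82.0%, 72.3% and 63.0% of cases in NSun3 replicates 1 to 3 and in 97.0% to 97.4% in the NSun6 libraries. Fold changes without the library labelled NSun3 replicate 3 are given beside those with it. Nothing states that replicates came from separate cultures, so the p-values measure the spread between these libraries.

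The 9 genes held 12094 reads in the 6 libraries together. They were 4366, 1010 and 731 reads in NSun3 replicates 1 to 3 and 2039, 2362 and 1586 in NSun6 replicates 1 to 3. All of them lay in 5 genes, MT-TF, MT-TG, MT-TT, MT-TI and MT-TR. MT-TV, MT-TW, MT-TD and MT-TK had 0 reads in all 6 libraries, on the strand of the gene and in the 5 nt on either side. In NSun3, MT-TG took 69.5% ± 6.13 (SD, n = 3) of the reads of the 9 genes and MT-TF 16.6% ± 6.93. In NSun6 the order was the other way round, with 78.7% ± 3.66 in MT-TF and 10.8% ± 0.972 in MT-TG. Both shares lay apart between the enzymes in every library.

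**Figure D1:**
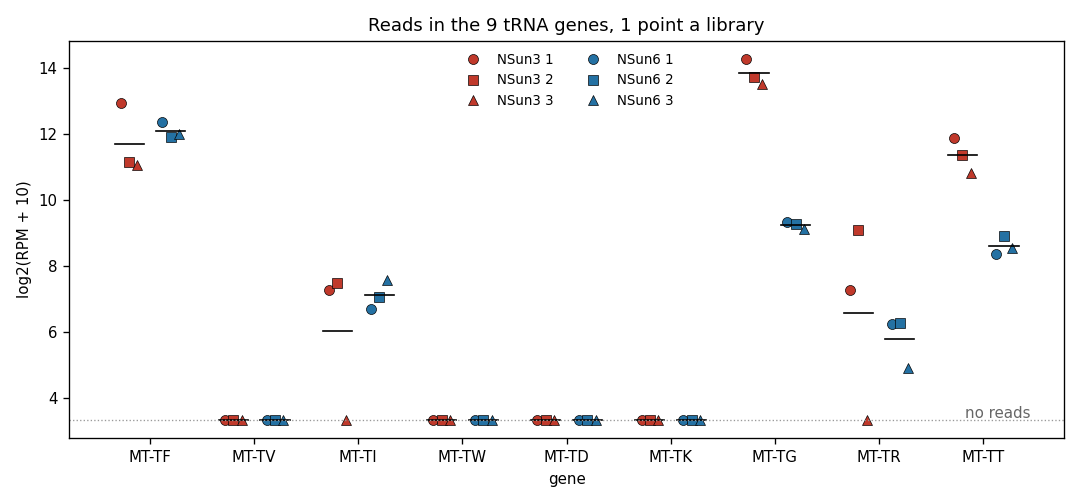
Reads in each of the 9 genes per library, as log2(RPM + 10), for NSun3 (red) and NSun6 (blue), with a line at the mean of 3 libraries and a dotted line at no reads. The NSun3 points of MT-TG and MT-TT lie above all NSun6 points, those of MT-TF, MT-TI and MT-TR overlap with NSun6, and MT-TV, MT-TW, MT-TD and MT-TK have no reads.

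To compare genes, levels were set per length, in RPM per 100 nt. In NSun3, MT-TG stood at 21957 ± 6288 (SD, n = 3), MT-TF at 5642 ± 4509, MT-TT at 4099 ± 1447, MT-TR at 345 ± 420 and MT-TI at 152 ± 133. MT-TF and MT-TT overlapped there, as did MT-TR and MT-TI, whereas the other neighbours in this order did not. In NSun6, the order was MT-TF at 6135 ± 1034, MT-TG at 874 ± 68.9, MT-TT at 577 ± 119, MT-TI at 191 ± 64.5 and MT-TR at 77.3 ± 40.8, and no 2 neighbours overlapped. For scale, MT-TM, the tRNA of methionine, held 100554 ± 33335 RPM per 100 nt in NSun3 and 184 ± 30.2 in NSun6. MT-TL1 held 17948 ± 6266 in NSun3 and 35262 ± 4436 in NSun6, and MT-TS2 held 29455 ± 8449 and 4205 ± 668.

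The enzymes were compared gene by gene with edgeR's quasi-likelihood test on the reads, scaled to the library totals. Of the 5 members tested, 3 were higher in NSun3 (MT-TG, MT-TT and MT-TR), 0 were lower and 2 (MT-TF and MT-TI) did not pass at an adjusted p of 0.05. Scaled to the mtDNA reads in place of the library totals, 2 were higher (MT-TG and MT-TT) and 2 lower (MT-TF and MT-TI), where 1.69% of all 2247 genes tested were higher and 95.7% lower. Scaled to the library totals, 4.09% of all 1734 genes tested were higher in NSun3 and 90.8% lower. The median log2 fold change was 2.08 over the 5 members and -7.47 over all genes. Reads of mtDNA made up 37.6%, 34.4% and 24.4% of NSun3 replicates 1 to 3. In NSun6 replicates 1 to 3 they made up 9.56%, 8.05% and 8.98%. Fold changes of mtDNA genes scaled to the library totals include this difference. The 4 genes without reads could not be tested. Of the other 13 mitochondrial tRNA genes, 8 were tested, of which 4 were higher in NSun3, 3 lower and 1 not called, with a median of 0.44.

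MT-TG had 19738, 13503 and 11552 RPM in the 3 NSun3 libraries. In the NSun6 libraries it had 636, 603 and 544 RPM. Every NSun3 library was above every NSun6 library. The log2 fold change was 4.65 ± 0.38 SE (adjusted p = 1.34e-05, edgeR), and without the library labelled NSun3 replicate 3 it was 4.81. Scaled to the mtDNA reads in place of all reads it was 2.78.

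MT-TT had 3700, 2621 and 1795 RPM in NSun3 and 315, 468 and 360 RPM in NSun6. Its groups did not overlap either. The log2 fold change was 2.83 ± 0.35 SE (adjusted p = 9.88e-05, edgeR), 3.05 without the library labelled NSun3 replicate 3 and 0.92 when scaled to mtDNA reads. MT-TG and MT-TT were thus 2 of 5 tested members with no overlap and the higher level in NSun3, against 3.98% of all genes tested. That share is over nuclear and mtDNA genes together, and the trait was not particular to the members. Among the other tested tRNA genes of mtDNA, MT-TM, MT-TS2 and MT-TY also lay above, MT-TL1, MT-TL2 and MT-TP below, and MT-TH and MT-TC overlapped. The rRNA genes and the tested protein genes of mtDNA also lay above, except MT-ND3 and MT-ND4L, which lay below.

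MT-TR was read thinly, at 20, 28 and 0 reads in NSun3 and 21, 31 and 6 in NSun6. In RPM this was 144, 528 and 0 against 64.8, 66.3 and 19.6, and the groups overlapped. The log2 fold change of 2.08 ± 0.88 passed narrowly (edgeR, adjusted p = 0.0445). It kept its call without NSun3 replicate 1 (2.39, adjusted p = 0.0364) and without the library labelled NSun3 replicate 3 (2.58, adjusted p = 0.00235). It was 0.81 without NSun3 replicate 2 (adjusted p = 0.369), 2.28 without NSun6 replicate 1 (adjusted p = 0.122), 2.37 without NSun6 replicate 2 (adjusted p = 0.130) and 1.75 without NSun6 replicate 3 (adjusted p = 0.196). Scaled to mtDNA reads it was 0.16. Of the 28 reads in NSun3 replicate 2, 21 lay at base 7.

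MT-TF had 7702, 2225 and 2091 RPM in NSun3 and 5186, 3792 and 4090 in NSun6. NSun3 replicate 1 was above the NSun6 libraries and the other NSun3 libraries below them. The log2 fold change was -0.11 ± 0.50 SE (adjusted p = 0.830, edgeR), and without NSun3 replicate 1 it fell to -1.01 (adjusted p = 0.00797). It was 0.20 without the library labelled NSun3 replicate 3 (adjusted p = 0.628). As a share of the mtDNA reads, MT-TF took 2.05%, 0.647% and 0.858% in NSun3 and 5.43%, 4.71% and 4.56% in NSun6, with no overlap. Scaled to those reads, its log2 fold change was -2.04 (edgeR, adjusted p = 0.000394). Counting each position once in place of its reads, scaled to all listed positions of the library, it was 2.14 (edgeR, adjusted p = 0.000189). Those totals were 9903, 3782 and 3179 in NSun3 and 27780, 78300 and 39942 in NSun6. This fold includes their difference. The gene had reads at 36 bases over all libraries, so its own count of positions has a ceiling.

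MT-TI had 20, 9 and 0 reads in NSun3 and 30, 57 and 55 in NSun6, which is 144, 170 and 0 RPM against 92.6, 122 and 180 RPM. The groups overlapped, with a log2 fold change of -0.21 ± 0.62 SE (adjusted p = 0.753, edgeR). Scaled to mtDNA reads it was -2.16 (adjusted p = 0.00341), and without the library labelled NSun3 replicate 3 it was 0.23 (adjusted p = 0.598). Among the other 36 mtDNA genes, the level of MT-TI over the 6 libraries was nearest to that of MT-TR, with a mean absolute difference of 0.92 in log2(RPM + 10). By the same measure MT-TT was nearest to MT-ND2 (0.48), MT-TF to MT-ND4L (0.85) and MT-TG to MT-ND1 (0.99).

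**Figure D2:**
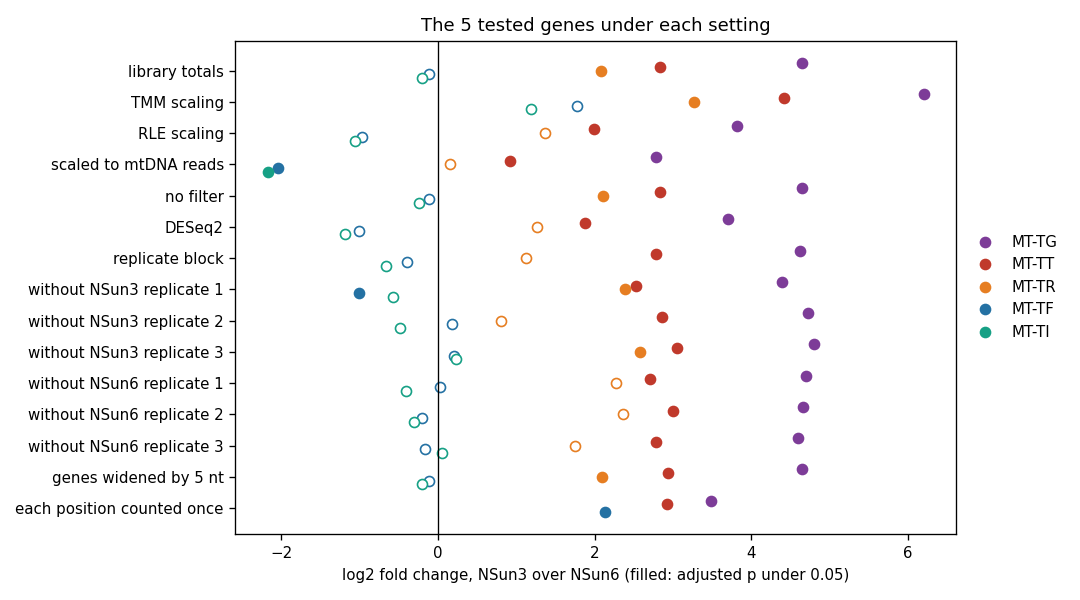
Log2 fold change of NSun3 over NSun6 for the 5 tested genes (colours) under each setting (rows), filled where the adjusted p was under 0.05. MT-TG and MT-TT stay right of 0 and filled in every row where they appear, MT-TR is open in 8 rows, and MT-TF and MT-TI lie on both sides of 0.

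Together the 9 genes took 8.36%, 5.54% and 6.34% of the mtDNA reads in NSun3 and 6.59%, 6.28% and 5.79% in NSun6. As a share of all library reads they took 3.14%, 1.90% and 1.54% in NSun3 and 0.629%, 0.505% and 0.519% in NSun6, with every NSun3 library above every NSun6 library (means 2.20% ± 0.839 and 0.551% ± 0.0680, exact permutation test, two-sided, n = 3 per enzyme, p = 0.1, the smallest that 3 against 3 can give). The means of the shares of mtDNA reads, 6.74% ± 1.45 and 6.22% ± 0.404, were not told apart (exact permutation test, two-sided, n = 3 per enzyme, p = 0.8). The difference of these means was 0.528 percentage points, and -0.279 without NSun3 replicate 1.

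The reads were then placed by base. In MT-TF, which carries phenylalanine, NSun6 reads piled up at base 16, a cytosine in the D arm, with 867, 1025 and 732 reads, or 56.0% ± 3.83 (SD, n = 3) of the gene. NSun3 had 97, 2 and 0 reads there. The base with the most NSun3 reads was base 20, with 275, 34 and 0 reads against 167, 94 and 61 in NSun6, and base 39, in the anticodon loop, held 255, 16 and 0 against 80, 77 and 87. The library labelled NSun3 replicate 3 had no reads at bases 16, 20 or 39, and 44 of its 99 reads lay at base 19. By mean share of the gene in NSun3, base 19 (20.2% ± 21.1) stood above base 20 (18.2% ± 15.8). No read in any library lay beyond base 39 of this gene.

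In MT-TG, both enzymes had most reads at base 11, a thymine of the D arm with no cytosine within 2 nt. The counts there were 806, 357 and 205 in NSun3 and 118, 89 and 45 in NSun6, which is 38.9% ± 10.3 and 38.7% ± 16.3 of the gene. Base 34, directly after the anticodon, held 669, 138 and 162 reads in NSun3 and 0, 2 and 0 in NSun6. At base 2, a cytosine of the acceptor stem, there were 565, 76 and 64 reads in NSun3 and 40, 85 and 49 in NSun6. Base 2 was thus above base 11 in NSun6 replicate 3 and close below it in NSun6 replicate 2. The anticodon arm as a whole took 38.0% ± 6.72 of the MT-TG reads in NSun3 and 9.23% ± 5.05 in NSun6.

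In MT-TT, the base with the most reads was the same for both enzymes, base 32, the first base of the anticodon. It held 353, 101 and 59 reads in NSun3 and 90, 153 and 78 in NSun6, or 70.3% ± 2.12 and 76.3% ± 10.3 of the gene. Base 11 came next, with 83, 27 and 0 reads against 0, 30 and 16. In MT-TR, base 11 held 15, 7 and 0 reads in NSun3 and 16, 16 and 1 in NSun6. In none of MT-TG, MT-TR and MT-TT is there a cytosine within 2 nt of base 11. The letters TAG before it, at bases 8 to 10, are the same in 7 of the 9 genes, MT-TF among them. The reads of MT-TI lay mostly in its anticodon arm, with 95.9% ± 5.63 of its NSun6 reads there, and base 31 was the highest in NSun6 (17, 25 and 12 reads). NSun3 had 7 reads at base 31 (5, 2 and 0) and 7 at base 27 (0, 7 and 0), where base 27 led in mean RPM through 1 library.

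**Figure D3:**
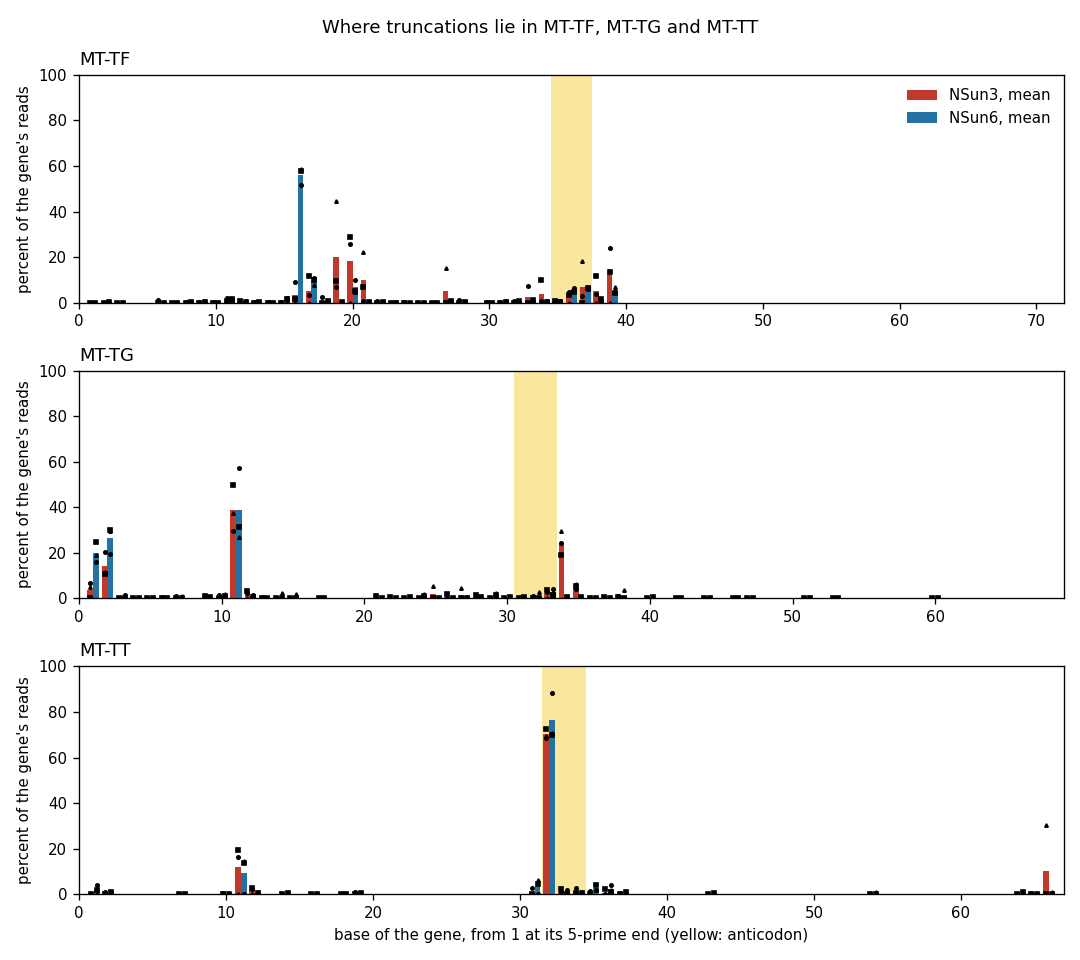
Share of the reads of MT-TF, MT-TG and MT-TT at each base, as the mean of 3 libraries (bars) with each library as a point, for NSun3 (red) and NSun6 (blue), and the anticodon in yellow. NSun6 stands at 56.0% at base 16 of MT-TF, NSun3 rises at base 34 of MT-TG where the NSun6 libraries had at most 2 reads, and both enzymes stand above 70% at base 32 of MT-TT.

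Each read was next given to the nearest cytosine within 2 nt. In the 9 genes together this was possible for 61.2% ± 10.3 of the NSun3 reads and 76.2% ± 0.643 of the NSun6 reads, below the 80.4% to 84.5% and 91.4% to 92.3% over all reads of those libraries, and for 0 of the reads of MT-TR. Of the 115 member cytosines, 27 received reads and 11 were tested. By edgeR, 7 were higher in NSun3, 1 was lower and 3 were not called, where 15.9% of all 1775 cytosines tested were higher and 72.5% lower. Scaled to mtDNA reads, 3 member cytosines were higher and 3 lower of 13 tested, where 7.59% of all 2135 tested were higher and 86.7% lower. Under RLE scaling 5 were higher and 2 lower of 11, against 14.7% and 77.8% of all 1775. Of the 8 called, DESeq2 called 1, cytosine 33 of MT-TG.

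Cytosine 33 of MT-TG, the last base of its anticodon, had 865, 204 and 196 reads in NSun3 and 9, 8 and 5 in NSun6. In RPM it stood at 4738 ± 1298 against 20.4 ± 6.39 (SD, n = 3), with no overlap. Its log2 fold change was 7.83 ± 0.56 SE (adjusted p = 0.000211, edgeR), the highest of the 11, and 7.92 without the library labelled NSun3 replicate 3. It took 31.5%, 28.5% and 35.8% of the gene's reads in NSun3 and 4.37%, 2.84% and 3.01% in NSun6. Most of the NSun3 reads were those at base 34, assigned to the cytosine before it. Most of the NSun6 reads lay at base 33 itself (9, 4 and 5 reads).

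Cytosine 2 of MT-TG had 752, 76 and 91 reads in NSun3 and 76, 156 and 83 in NSun6, and its log2 fold change was 3.38 ± 0.60 SE (adjusted p = 0.00100, edgeR). It was 3.62 without the library labelled NSun3 replicate 3 and 1.46 when scaled to mtDNA reads (adjusted p = 0.0151). Within the gene the direction was the other way round, with 18.2% ± 8.52 of the MT-TG reads in NSun3 and 47.4% ± 9.48 in NSun6. Cytosine 29, before the anticodon, had 15, 10 and 24 reads against 0, 8 and 5, with a log2 fold change of 4.41 ± 0.93 SE (adjusted p = 0.00217, edgeR), or 3.59 without the library labelled NSun3 replicate 3 (adjusted p = 0.00748). Within the gene it took 2.11% ± 2.02 of the reads in NSun3 and 1.95% ± 1.69 in NSun6, and the groups overlapped. Cytosine 29 was not tested when scaled to mtDNA reads or with reads taken only within 1 nt.

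In MT-TF, cytosine 16 and cytosine 19 of the D arm went opposite ways. Cytosine 16 had 131, 16 and 0 reads in NSun3 and 1046, 1201 and 831 in NSun6, and its log2 fold change fell to -2.73 ± 1.11 SE (adjusted p = 0.0461, edgeR). It kept its call without NSun3 replicate 1 (-4.20, adjusted p = 0.00806) and without the library labelled NSun3 replicate 3 (-2.16, adjusted p = 0.00953). Without NSun3 replicate 2 it was -2.52 (adjusted p = 0.0850), without NSun6 replicate 1 -2.65 (adjusted p = 0.158), without NSun6 replicate 2 -2.81 (adjusted p = 0.126) and without NSun6 replicate 3 -2.78 (adjusted p = 0.143). Cytosine 15, beside it, had 6, 0 and 0 reads in NSun3 and 33, 32 and 17 in NSun6, with no overlap, and a log2 fold change of -1.67 ± 0.75 SE that did not pass (adjusted p = 0.0630, edgeR). It passed under RLE scaling (-3.19, adjusted p = 0.00226), scaled to mtDNA reads (-3.62, adjusted p = 0.00120) and without NSun3 replicate 1 (adjusted p = 0.0132), where the NSun3 libraries left had 0 reads and no fold is given. It was -1.40 without the library labelled NSun3 replicate 3 (adjusted p = 0.138). Cytosine 19 had 347, 45 and 44 reads against 167, 103 and 63 and rose, with a log2 fold change of 2.19 ± 0.59 SE (adjusted p = 0.00767, edgeR). It was 1.98 without NSun6 replicate 2 (adjusted p = 0.0527), 1.96 without NSun6 replicate 3 (adjusted p = 0.0600) and 0.32 when scaled to mtDNA reads (adjusted p = 0.520). Without the library labelled NSun3 replicate 3 it was 2.43 (adjusted p = 0.00708). Of the reads of cytosine 19, 275, 34 and 0 in NSun3 and 167, 94 and 61 in NSun6 lay at base 20. This base is as near to cytosine 21, and a tie goes to the 5′ cytosine. Base 19 itself held 72, 11 and 44 reads against 0, 9 and 2. Cytosine 21 had 16, 8 and 22 reads against 15, 6 and 4, with a log2 fold change of 3.27 ± 0.76 SE (adjusted p = 0.00352, edgeR), and 1.58 when scaled to mtDNA reads (adjusted p = 0.0969). Without the library labelled NSun3 replicate 3 it was 2.44 (adjusted p = 0.0132). Cytosine 33, in the anticodon arm, had 95, 13 and 0 reads against 34, 34 and 20 and did not pass (log2 fold change 2.00 ± 1.01 SE, adjusted p = 0.0930, edgeR). Without the library labelled NSun3 replicate 3 it was 2.56 (adjusted p = 0.00263). Cytosine 11 had 25, 2 and 0 reads against 28, 35 and 26, with a log2 fold change of 0.14 ± 0.74 SE (adjusted p = 0.860, edgeR), or 0.56 without that library. Scaled to mtDNA reads it was -1.85 (adjusted p = 0.0342).

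As a share of the MT-TF reads, which does not depend on the scaling, cytosine 16 took 12.2%, 13.6% and 0% in NSun3 and 62.3%, 67.7% and 66.5% in NSun6. Cytosine 19 took 32.4%, 38.1% and 44.4% in NSun3 and 9.94%, 5.81% and 5.04% in NSun6. The groups lay apart at both bases. Over 10 such shares in the 3 genes, the exact permutation test (two-sided, n = 3) gave its smallest possible p of 0.1 for 7, with an adjusted p of 0.143. Shares of the same gene move against each other, so these are not separate results. The same count was not made over all cytosines, so no result about the members is drawn from it.

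In MT-TT, cytosine 30 received the reads of base 32. It had 368, 101 and 59 reads in NSun3 and 90, 163 and 85 in NSun6, and its log2 fold change was 2.68 ± 0.41 SE (adjusted p = 0.000628, edgeR). It was 2.92 without the library labelled NSun3 replicate 3, 0.78 when scaled to mtDNA reads (adjusted p = 0.0289) and 1.13 under RLE scaling (adjusted p = 0.0485). DESeq2 did not call it (1.13, adjusted p = 0.464). With reads taken only within 1 nt, cytosine 30 was not tested, because base 32 lies 2 nt away. Base 31 held 15, 0 and 0 reads in NSun3 and 0, 10 and 7 in NSun6. Within the gene the direction was the other way round, with 71.6%, 72.7% and 69.4% of the MT-TT reads in NSun3 and 88.2%, 74.4% and 77.3% in NSun6, so that every NSun3 library was below every NSun6 library. Cytosine 65, the last cytosine of the gene, had 312, 12 and 26 reads in NSun3 and 57, 83 and 92 in NSun6. Its groups overlapped, and the log2 fold change of 2.22 ± 0.79 passed (edgeR, adjusted p = 0.0261). It was 2.53 without the library labelled NSun3 replicate 3 (adjusted p = 0.0155), 0.29 when scaled to mtDNA reads, 0.82 without NSun3 replicate 1 (adjusted p = 0.147), 2.08 without NSun6 replicate 1 (adjusted p = 0.128), 2.08 without NSun6 replicate 2 (adjusted p = 0.118) and 2.52 without NSun6 replicate 3 (adjusted p = 0.0783). Most of these reads lay 1 nt beyond the gene, at 309, 12 and 0 in NSun3 and 57, 81 and 91 in NSun6. With reads taken only within 1 nt, cytosine 65 was not tested either. The 5 nt after MT-TT held 506, 50 and 92 reads in NSun3 and 61, 117 and 102 in NSun6, whereas the 5 nt before it held 2 reads in all. For the other members the same 5 nt on either side held at most 6 reads in a library.

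High-confidence cytosines (above 50 RPM in 2 or 3 replicates) numbered 13 for NSun3 and 8 for NSun6 in the members, and 6 were shared. Over all RNA there were 707 for NSun3, of which 316 on mtDNA, and 1881 for NSun6, of which 87 on mtDNA. They lay in MT-TF (5 for each enzyme), MT-TG (6 for NSun3 and 1 for NSun6) and MT-TT (2 for each). In MT-TT these were cytosines 30 and 65 for both enzymes, and most reads of cytosine 65 lay 1 nt beyond the gene. The NSun3 count was 7 without NSun3 replicate 1 and 11 without the library labelled NSun3 replicate 3. MT-TI and MT-TR had none. The limit asked for unlike numbers of reads: 3 reads were 56.6 and 63.4 RPM in NSun3 replicates 2 and 3. In the NSun6 libraries 3 reads were 6.42 to 9.82 RPM, so the counts of the 2 enzymes are not on the same footing.

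The bases with reads were all among those where a short read can be placed. The authors kept reads that match a single best place, so the shortest stretch of at least 18 nt that starts at a base and matches no other place of the GRCh37 reference was measured for all 614 bases of the 9 genes. A stretch of 30 nt or fewer was enough at 276 bases, and 122 of these held all 12094 reads. At some of these bases the stretch runs past the 3′ end of the gene. It ended inside the gene at 49 of 66 such bases in MT-TT, 48 of 65 in MT-TG and 32 of 36 in MT-TI. In MT-TR this was 13 of 37, in MT-TW 0 of 29, in MT-TD 4 of 4 and in MT-TF 39 of 39. No library had a read at the 39 bases that needed 31 to 40 nt or at the 299 that needed more. The limit of 30 nt was chosen after these values were seen, and the read lengths were not measured. The mtDNA the authors aligned to has another numbering than this reference and may differ from it in sequence. In the members, 1 listed bisulfite position, base 45 of MT-TT, was not C or G in this reference.

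In MT-TF, bases 1 to 39 needed at most 29 nt, and base 40 needed 94 nt, which is where the reads ended. In MT-TI, reads began at base 23, where 28 nt were enough, and the first base needed 50 nt. MT-TR needed at most 20 nt up to base 13, 58 nt at base 14 and 30 nt or fewer again from base 42. Its last read lay at base 12. From base 42 on, the stretch that was needed ran past the end of the gene. It ended inside the gene only at bases 1 to 13. The lack of reads from base 42 on therefore does not show a lack of truncations in this tRNA. In all, 5 of its 37 bases needing 30 nt or fewer had reads. MT-TG and MT-TT, with reads along 41 and 22 bases, needed at most 33 nt and 27 nt at any base. Of the 4 genes without reads, MT-TV needed at least 36 nt at every base and MT-TK at least 42 nt. In MT-TD a stretch of 30 nt or fewer was enough at 4 bases. In MT-TW it was enough at 29 bases, but at none of its bases did the stretch end inside the gene. A count of 0 in these genes therefore covers only reads that could be placed, and whether the enzymes met these tRNAs was not tested.

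**Figure D4:**
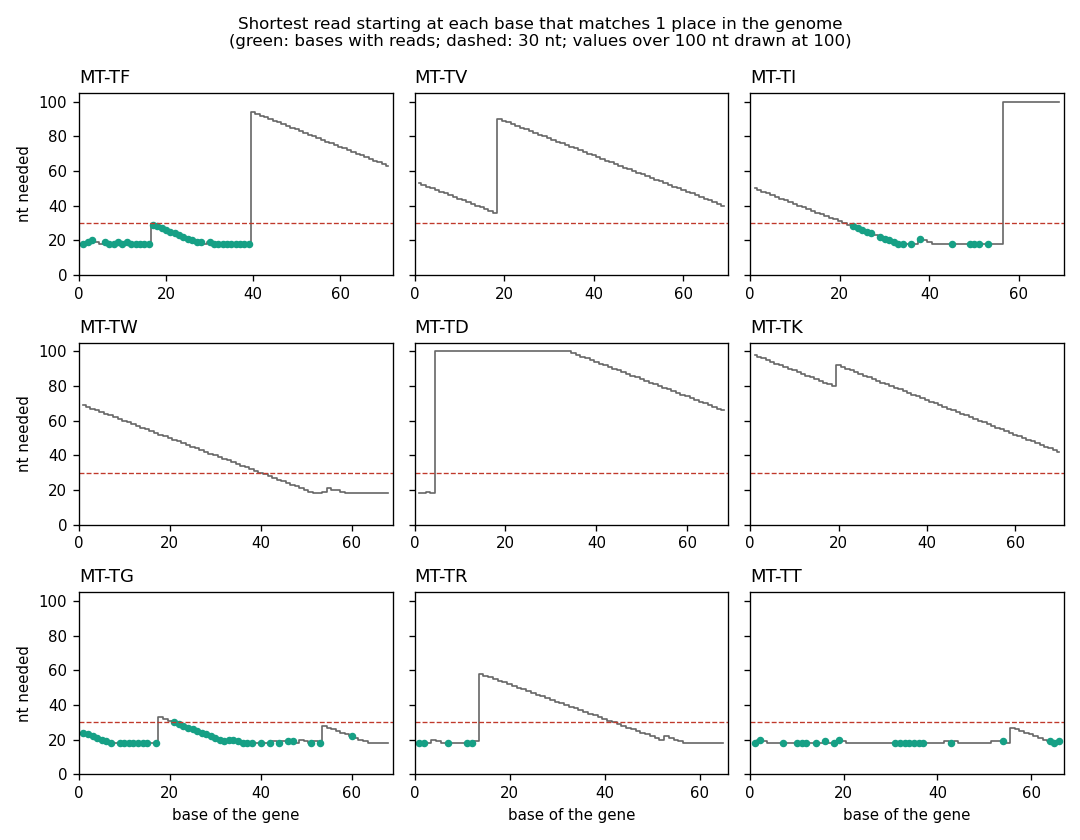
Shortest read, in nt, that starts at each base of the 9 genes and matches 1 place in the reference genome (grey), with bases that had reads in any library in green and 30 nt dashed. Every green point lies at or under 30 nt, and MT-TV and MT-TK lie above it at every base.

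The bisulfite table names no sample in its columns, and whether it pools both samples is not given in the sources used here. The authors made levels both before and after removal of possible PCR duplicates, and which version the table holds is not given either, so its reads may not be separate molecules. It listed 52 of the 115 member cytosines, 29 of them with over 5 reads. MT-TF, MT-TI, MT-TW and MT-TK had no listed cytosine on their strand. In MT-TV, 10 of 18 were listed with up to 40 reads each, and none was methylated. Summed over these cytosines this was 0 of 278, where the same read can count at several cytosines. At cytosine 61 of MT-TV, 0 of 40 reads gave an exact 95% binomial interval of 0% to 8.81%. In MT-TD all 9 cytosines were listed with 3 or 4 reads, none methylated.

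MT-TG went the other way: all 11 cytosines were listed with 5 to 7 reads, and every read was unconverted and so counted as methylated. At its cytosine 33, 5 of 5 reads gave an interval of 47.8% to 100%. The 8 cytosines of MT-TR, with 1 to 6 reads, were also at 100%. The 14 cytosines of MT-TT had 8 to 23 reads, and their level was 88.9% at cytosine 30 (9 reads, interval 51.8% to 99.7%) while 3 of 23 reads were methylated at cytosine 65 (2.78% to 33.6%). Neighbouring cytosines can be covered by the same few reads and are not independent. The opposite strand was read far more deeply over MT-TG (median 906 reads per cytosine, 0.355% methylated) and MT-TR (median 3584 reads, 0.375%). At over 20 reads, 8 member cytosines were left, 7 in MT-TV and 1 in MT-TT, and none reached 20%. The counts do not separate methylation from failed conversion. The part of failed conversion, of the low depth and of the opposite strand in the levels of MT-TG, MT-TR and MT-TT was not tested.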

How the data were processed

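The members were fixed by gene name and strand, and they and the lists were chosen with earlier results of these data known. PCR copies sharing a random barcode were dropped by the authors, as were reads under 18 nt. Alignment to hg19 used bowtie with at most 1 mismatch, uniquely placed reads were retained, and the authors deposited the read count at each position, taken as the truncation position, 1 file per library. For bisulfite sequencing the authors used Bismark and deposited the percent methylated per cytosine with the read counts behind it, in 1 table with no sample columns and so no replicate error. Versions are not given in the sources used here. The miCLIP files have no strand column. Each lists every chromosome in 2 passes, and the earlier pass was read as plus strand. Coordinates are 1-based in the numbering of the files, which is 2 nt ahead of the GRCh37 reference at MT-TF and MT-TV and 1 nt at the other members, checked at bisulfite positions, where 99.6% and 99.7% then fell on C or G.

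Reads were summed per gene and strand and per cytosine (within 2 nt, the 5′ one in a tie). NSun3 was compared with NSun6 by edgeR 4.0.16 (quasi-likelihood, filterByExpr, library totals, Benjamini-Hochberg over all features). The test was also run on simulated counts with the same spread for both enzymes. Equal numbers of features were raised and lowered there, unlike in these data. Library totals were used because most genes differed between the enzymes. Alternatives were TMM, RLE and mtDNA totals, no filter, DESeq2 1.42.0, a replicate block, other gene limits, and leaving out each library. All 9 members, the highest high-confidence cytosines and the base with most reads per gene were named by rule. Cytosines 15 and 21 and bases 19 and 39 of MT-TF, bases 2 and 34 of MT-TG and base 11 of MT-TT were named after their values were seen. Intervals are exact binomial at 95% and cover counting error only.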

Additional observations from a re-analysis of the deposited data

Results flagged for a closer look

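Truncations on the strand opposite to the members enter no comparison above and were over 3 reads in a library at 4 genes. Opposite MT-TT there were 102, 10 and 30 reads in NSun3 and 6, 5 and 3 in NSun6. Opposite MT-TI, NSun6 replicates 2 and 3 were highest with 7 reads each. MT-TQ, which overlaps MT-TI on that strand, had 0 reads in every NSun6 library. Opposite MT-TD, which had 0 reads on its own strand, there were at most 4 reads in NSun3 and 4 in NSun6. Opposite MT-TG, NSun6 replicate 2 had 4 reads and the other libraries 0.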

How the results depend on the processing

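The count of 3 members called in the gene test ranged from 2 to 4 over 14 alternatives, and MT-TG and MT-TT were called higher in NSun3 in each of them, with log2 fold changes from 2.78 to 6.20 and from 0.92 to 4.41. MT-TR lost its call in 8 of 13 alternatives (adjusted p up to 0.855). MT-TF changed sign under TMM scaling (1.77), with each position counted once (2.14), and without NSun3 replicate 2 (0.18), NSun3 replicate 3 (0.20) or NSun6 replicate 1 (0.03), in a range of -1.01 to 0.20 without a library. MT-TI changed sign under TMM scaling (1.18) and without NSun3 replicate 3 (0.23) or NSun6 replicate 3 (0.05), in a range of -0.57 to 0.23 without a library. The cause was not tested. With each position counted once, MT-TI and MT-TR were not tested.

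Of 8 member cytosines called, DESeq2 left 1, cytosine 33 of MT-TG, and 13 were called with no filter on low counts. Leaving out a library gave 6 to 11. Cytosine 11 of MT-TF, not called, turned from 0.14 to -1.41 under RLE, -1.85 scaled to mtDNA reads, -0.033 with no filter, -1.59 under DESeq2, -0.97 with the block, and ranged from -2.02 (without NSun3 replicate 1) to 0.56 without a library. The replicate numbers did not pair the libraries (correlations of 0.038, 0.083 and -0.00093 between same-numbered libraries). With the replicate block, 2 members and 5 member cytosines were called, and cytosines 19 and 21 of MT-TF and 30 and 65 of MT-TT were not (adjusted p from 0.0778, at cytosine 30, to 0.360).

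The difference in the share of mtDNA reads of the members was 0.528 percentage points, and -0.157 with each position counted once. Leaving out a library gave -0.279 to 1.13, the lowest without NSun3 replicate 1. The 13 high-confidence cytosines of NSun3 were 7 when all 3 replicates had to pass and 8 with reads within 1 nt, and 7 to 11 without a library. The 8 of NSun6 were 5 at over 100 RPM, and 8 without any library. The 29 covered bisulfite cytosines were 8 at over 20 reads.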
